A study of Homo sapiens with 6 samples.

Results

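Protocadherin genes were examined in TFK1 cells with and without overexpression of STUB1. The members were all genes whose symbol starts with PCDH, leaving out 2 antisense or divergent transcripts (PCDH9-AS2 and PCDH10-DT), which gave 64 of the 23569 genes listed. Of these, 52 belong to the 3 gene clusters on chromosome 5, with 15 alpha, 15 beta and 22 gamma genes, and 12 are non-clustered. PCDHB1 and PCDH11X were not analysed here.

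Protocadherins are cadherin-family transmembrane proteins. The clustered members recognise the same isoform on a neighbouring cell and give neurons a surface identity, and each variable exon of the clusters has its own promoter, whose use is tied to CTCF, cohesin and CpG methylation. In the alpha and gamma clusters a variable exon is spliced to constant exons that encode a shared cytoplasmic tail, while each beta gene is a single exon without that tail. The C-type genes (PCDHAC1, PCDHAC2 and PCDHGC3 to PCDHGC5) stand at the end of the alpha and gamma arrays and, in neurons, are used more uniformly than the other isoforms. Non-clustered members include the delta-1 group, with longer cytoplasmic tails, and the delta-2 group.

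TFK1 cells were derived from a carcinoma of the extrahepatic bile duct and are an established line. The comparison was between 3 libraries of negative control TFK1 cells (oeNC) and 3 libraries of TFK1 cells stably overexpressing STUB1 from a lentivirus (oeSTUB1). STUB1 is a ubiquitin ligase and co-chaperone. The STUB1 coding sequence was carried by the pHAGE vector, the vector of the control cells is not given in the sources used here, transduced cells were selected with puromycin, and the labels give no treatment. As far as the methods tell, each group is 1 stably transduced population, so the population and the overexpression cannot be told apart. The labels do not say that the libraries came from separate cultures, so p-values measure the spread between these libraries, which may be technical.

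Library totals lay between 33106564 and 36744521 fragments, as recovered from the deposited FPKM (fragments scaled to gene length and to the library total). STUB1 itself had 1620 to 1636 fragments in oeNC and 3022 to 3547 in oeSTUB1, a log2 fold change of 1.03 (SE 0.097, adjusted p = 0.00064). Of the 7 biliary markers KRT7, KRT8, KRT18, KRT19, EPCAM, CDH1 and SOX9, KRT19 was low in oeNC (0.374 to 0.529 FPKM) and rose to 2.51 to 3.41 FPKM in oeSTUB1, and 4 of 7 fell (CDH1, EPCAM, KRT8 and KRT18). KRT8 and KRT18 lost their call without any 1 library other than oeSTUB1 replicate 2, with adjusted p up to 0.166 and 0.117, which leaves 2 of 7. As reported, 71.4% of the 7 were called in either direction, beside 13.6% over all genes tested. Summed, these markers gave 7419 to 7996 FPKM in oeNC but 4724 to 6263 FPKM in oeSTUB1, a sum carried mostly by KRT8 and KRT18. KRT7 lay higher in oeSTUB1 (587 to 872 FPKM) than in oeNC (482 to 527 FPKM) without passing the test, and SOX9 overlapped between the groups. The 8 fibroblast markers summed to 1.31 to 2.37 FPKM in oeNC and 2.16 to 4.05 FPKM in oeSTUB1. COL1A1 carried most of this (1.07 to 1.95 and 1.93 to 3.68 FPKM), and DCN was at 0 in every oeNC library. The 8 neural markers summed to 10.4 to 11.9 and 9.62 to 10.9 FPKM. SNAP25 (7.07 to 8.06 and 6.77 to 7.53 FPKM) and SYP (3.25 to 3.79 and 2.78 to 3.29 FPKM) carried nearly all of it. STMN2 was at 0 in every oeNC library. Only 2 of the 8 fibroblast and 2 of the 8 neural markers were high enough to be tested. None of these passed the test, and the part of the markers in the protocadherin results was not tested.

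1 library stood apart. The chi-square per degree of freedom between replicates was 3.48 to 10.4 in the other pairs and 76.7 and 82.6 in the pairs with oeSTUB1 replicate 2. This library was the lowest of the 3 oeSTUB1 libraries for 21 of the 23 protocadherins tested (91.3%), against 42.6% of all genes tested, 74.8% of the genes of at least 5000 bases and 15.8% of those under 2000 bases. No share was taken for genes between these lengths, where most tested beta genes and some alpha and gamma genes fall. Where leaving this library out changed the call of a named gene, that fit is given. Over all genes that fit called 2274 higher and 1838 lower, beside 1076 and 1012 with the library included.

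The promoters of the clustered genes are shown first, because each isoform is expressed from its own promoter. RefSeq windows (GRCh38.p14) of 300 bases, from 250 bases before to 50 bases after the gene start, were found for 56 of the 64 members. PCDH10, PCDH20, PCDHA3, PCDHA13, PCDHB6, PCDHB11, PCDHGA12 and PCDHGC5 had none. The 4 letters CGCT, the core of the conserved element of these promoters, occurred on either strand in 12 of 13 alpha, 13 of 13 beta, 20 of 20 gamma and 9 of 10 non-clustered genes. They also occurred in 71.9% of all 27305 genes with a window. Of the words of 8 letters holding CGCT on the gene's own strand, the most frequent differed by cluster. The presence of each such word was then searched on both strands. ATGTCGCT was present in 9 of 13 alpha genes and 0.282% of all genes, GTGGCGCT in 13 of 13 beta genes and 1.38% of all genes, and GCCGCTGT in 11 of 20 gamma genes and 1.98% of all genes. None of these 3 words was present in a protocadherin of another class. The 32 bases around the word, in capitals, are given for 3 genes of each cluster to show how alike the flanks are.
PCDHA4, chr5:140806979-140807010, plus strand: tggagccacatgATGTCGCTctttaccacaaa
PCDHA5, chr5:140821542-140821573, plus strand: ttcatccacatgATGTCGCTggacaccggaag
PCDHA12, chr5:140875244-140875275, plus strand: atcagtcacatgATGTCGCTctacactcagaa
PCDHB2, chr5:141094544-141094575, plus strand: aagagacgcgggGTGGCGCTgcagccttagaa
PCDHB5, chr5:141135179-141135210, plus strand: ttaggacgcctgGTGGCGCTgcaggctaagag
PCDHB13, chr5:141213865-141213896, plus strand: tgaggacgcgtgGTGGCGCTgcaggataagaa
PCDHGB1, chr5:141350027-141350058, plus strand: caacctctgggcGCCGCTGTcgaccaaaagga
PCDHGA7, chr5:141382651-141382682, plus strand: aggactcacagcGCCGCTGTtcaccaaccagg
PCDHGC3, chr5:141475882-141475913, plus strand: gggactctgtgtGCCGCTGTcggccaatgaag

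In the alpha cluster the word was absent from the windows of PCDHA9, PCDHA11, PCDHAC1 and PCDHAC2. The log2 fold changes of the tested alpha genes with the word were -0.04 for PCDHA4, -0.24 for PCDHA5 and -0.31 for PCDHA12, and those of the tested genes without it were -0.60 for PCDHA11, -0.98 for PCDHAC2 and -1.11 for PCDHAC1. This split was looked at after the values were seen and was not tested. A window without the word shows only that these letters are not in it. The tested alpha gene PCDHA3 (-0.64) had no window, and the PCDHA11 window holds GTGTCGCT, which differs from the word in its first letter.

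Counting the first listed window of each gene, CpG sites numbered 3 to 27 (median 7) in the alpha windows, 5 to 12 (median 8) in beta, 2 to 23 (median 7) in gamma and 5 to 26 (median 13) in non-clustered genes, beside a median of 14 over all windows of all genes. Second windows of PCDHGC4 and PCDHGB6 held 24 and 25, and PCDHAC1, with 27, had the most of the protocadherins. Whole windows are given, with each CpG in capitals, for the leading genes of the alpha, beta and gamma clusters, for PCDHAC1, and for the non-clustered genes PCDH7 and PCDH9.
PCDHAC1, chr5:140926049-140926348, plus strand: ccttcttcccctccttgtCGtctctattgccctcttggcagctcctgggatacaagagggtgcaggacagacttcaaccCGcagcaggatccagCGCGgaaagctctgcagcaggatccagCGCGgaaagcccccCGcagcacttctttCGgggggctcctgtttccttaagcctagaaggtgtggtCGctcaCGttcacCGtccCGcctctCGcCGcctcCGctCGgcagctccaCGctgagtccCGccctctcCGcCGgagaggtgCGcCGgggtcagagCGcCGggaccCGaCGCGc
PCDHAC2, chr5:140966226-140966525, plus strand: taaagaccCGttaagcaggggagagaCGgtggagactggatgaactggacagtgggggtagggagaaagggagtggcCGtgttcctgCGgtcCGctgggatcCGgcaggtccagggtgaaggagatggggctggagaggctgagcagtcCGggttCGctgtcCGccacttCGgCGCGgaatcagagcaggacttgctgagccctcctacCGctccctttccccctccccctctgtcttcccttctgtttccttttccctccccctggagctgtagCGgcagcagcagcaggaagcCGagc
PCDHB2, chr5:141094365-141094664, plus strand: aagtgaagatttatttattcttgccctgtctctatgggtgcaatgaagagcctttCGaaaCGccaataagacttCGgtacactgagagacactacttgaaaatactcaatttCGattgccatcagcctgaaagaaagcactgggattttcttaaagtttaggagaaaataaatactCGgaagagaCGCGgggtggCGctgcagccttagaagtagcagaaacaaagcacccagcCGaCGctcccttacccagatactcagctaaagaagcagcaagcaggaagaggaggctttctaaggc
PCDHGC3, chr5:141475716-141476015, plus strand: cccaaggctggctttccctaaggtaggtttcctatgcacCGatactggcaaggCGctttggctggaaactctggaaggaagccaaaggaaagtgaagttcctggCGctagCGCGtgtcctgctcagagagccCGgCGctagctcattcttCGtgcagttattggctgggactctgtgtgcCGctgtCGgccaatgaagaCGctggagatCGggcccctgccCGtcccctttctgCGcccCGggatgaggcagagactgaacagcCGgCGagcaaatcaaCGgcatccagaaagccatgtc
PCDH7, chr4:30720119-30720418, plus strand: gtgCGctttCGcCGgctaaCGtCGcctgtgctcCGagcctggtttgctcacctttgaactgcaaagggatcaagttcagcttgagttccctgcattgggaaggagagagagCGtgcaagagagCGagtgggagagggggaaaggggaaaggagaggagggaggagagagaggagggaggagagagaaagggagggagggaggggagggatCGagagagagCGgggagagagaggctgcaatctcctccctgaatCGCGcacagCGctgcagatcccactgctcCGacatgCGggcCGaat
PCDH9, chr13:67230287-67230586, minus strand: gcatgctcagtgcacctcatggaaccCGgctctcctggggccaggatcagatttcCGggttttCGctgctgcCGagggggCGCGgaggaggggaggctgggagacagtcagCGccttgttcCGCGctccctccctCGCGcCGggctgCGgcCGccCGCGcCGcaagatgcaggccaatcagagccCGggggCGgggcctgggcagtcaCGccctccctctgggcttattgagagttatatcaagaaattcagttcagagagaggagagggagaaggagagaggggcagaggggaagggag
PCDHAC2 held 15 CpG sites, PCDHB2 10, PCDHGC3 18, PCDH7 16 and PCDH9 20. The beta window is the poorest in GC of those shown, at 45.3%, beside 66.0% for PCDHAC1.

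Low expression was the rule. 23 of the 64 members had a mean of at least 0.1 FPKM over the 6 libraries and were tested (7 alpha, 7 beta, 6 gamma and 3 non-clustered), and the other 41 were not. 9 members had at most 3 fragments in every library: PCDH8, PCDH11Y, PCDH12, PCDH18, PCDHGA3, PCDHGA10, PCDHGA11, PCDHGA12 and PCDHGC4. Between 41 and 47 members had more than 3 fragments in a given library. PCDH9 had the highest level, with a mean of 8.78 FPKM, followed by PCDHB2 at 1.78, PCDHAC2 at 1.64, PCDHB5 at 1.41 and PCDHGC3 at 0.990 FPKM. Only PCDH9 stood clear of its neighbour over all 6 libraries, its lowest value (4.93 FPKM) lying above the highest of PCDHB2 (2.09 FPKM).

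**Figure D1:**
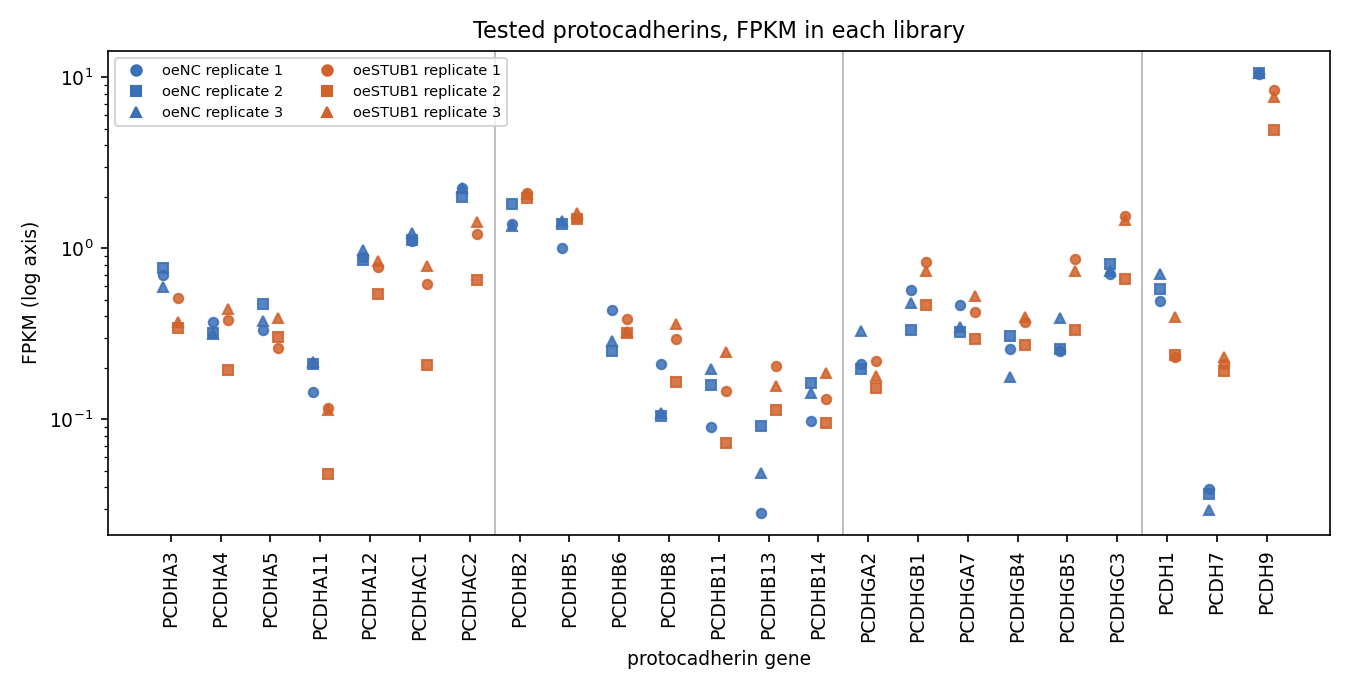
FPKM (log axis) of the 23 tested protocadherins in each library, with genes on the horizontal axis separated by lines into alpha, beta, gamma and non-clustered; blue marks are oeNC, orange marks oeSTUB1, and the marker shape gives the replicate. The alpha genes lie mostly lower in oeSTUB1, PCDH7 lies higher in all 3 oeSTUB1 libraries, and oeSTUB1 replicate 2 (orange squares) is the lowest oeSTUB1 library for 21 of the 23 genes.

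After STUB1 overexpression 1 protocadherin rose (PCDH7) and 2 fell (PCDH1 and PCDHAC2) at an adjusted p under 0.05 in limma on log2(FPKM + 0.1). Over all genes tested 7.01% rose and 6.59% fell, 13.6% in either direction, so the 13.0% of tested protocadherins was near the background. Of these 3, PCDH7 alone changed by more than 1 on the log2 scale, a threshold that 2.79% of all genes passed upward and 2.4% downward. The 3 libraries of one group lay apart from the 3 of the other in 4 members upward and 7 downward (47.8% of those tested). Over all genes tested the shares were 21.5% upward and 17.3% downward, or 38.8% in either direction. The median log2 fold change was 0.01 over the tested protocadherins and 0.02 over all genes. In bulk RNA, fewer cells expressing a gene and less RNA of it per cell cannot be told apart.

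The sign of the fold changes went with the cluster, though this was counted and not tested. All 7 tested alpha genes had a negative log2 fold change (median -0.60), all 7 tested beta genes a positive one (median 0.26), and 5 of 6 gamma genes a positive one (median 0.42), beside 8083 positive of the 15353 genes tested. The filter favoured the sign of PCDHA11, PCDHB13 and PCDH7, which have a mean under 0.1 FPKM in their lower group, and the tally is a description of the members that passed it. The only clustered gene to pass the test was PCDHAC2. The direction itself was near 0 for PCDHA4, PCDHB6, PCDHB11, PCDHB14 and PCDHGA7, whose sign turned under at least 1 other processing.

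**Figure D2:**
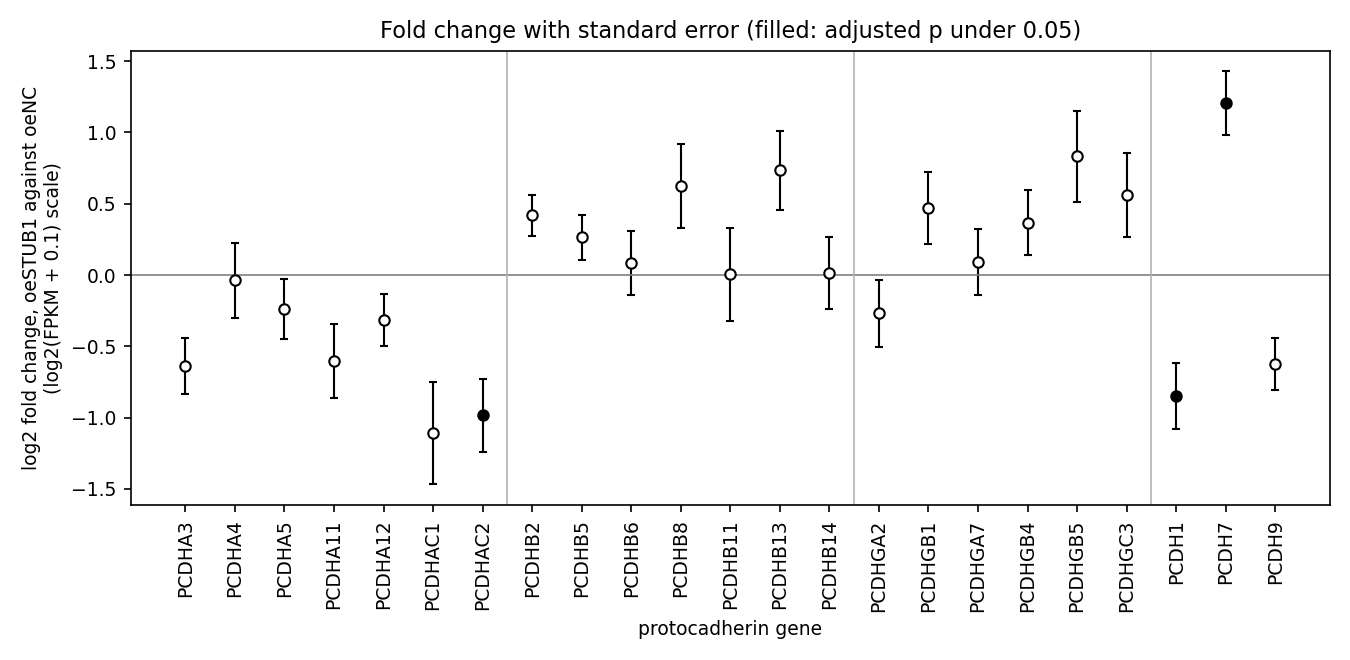
Log2 fold change, oeSTUB1 against oeNC on the log2(FPKM + 0.1) scale (vertical axis), with its standard error for each tested protocadherin (horizontal axis, lines separating alpha, beta, gamma and non-clustered); filled points have an adjusted p under 0.05. Filled points are PCDHAC2 (-0.98), PCDH1 (-0.85) and PCDH7 (1.20), while the alpha points lie below 0 and the beta points at or above 0.

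The alpha cluster spans chr5:140786136-141012347 in GENCODE 29 (GRCh38). Its 15 genes share 19.2 to 56.6% of their annotated exon bases (median 46.7%) with another gene, and 2866 bases are common to all 15. The counting mode and strand setting are not given in the sources used here, so fragments of the constant exons may be missing from single genes or placed in one of them. In the alpha and gamma clusters 8 of 37 genes were listed at 0 in at least 1 library, so fragments of shared exons were not counted for every gene of a cluster. Because of the shared exons, the sums over a cluster are given beside the single genes.

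PCDHAC2 (chr5:140966235-141012344), a C-type isoform, was the leading alpha gene and held 25.0 to 35.3% of the recovered fragments of the cluster. The recovered length of PCDHA3 (3717 bases) is far below its 7460 annotated exon bases. Its fragments may therefore be understated and this share overstated, while FPKM is not affected. The level of PCDHAC2 was 2.25, 2.01 and 2.26 FPKM in oeNC and 1.22, 0.649 and 1.43 FPKM in oeSTUB1. The groups did not overlap, with means of 2.17 ± 0.142 and 1.10 ± 0.403 FPKM (SD, n = 3). It fell, with a log2 fold change of -0.98 (SE 0.25, adjusted p = 0.0400). The call was lost without oeNC replicate 1, 2 or 3 (adjusted p = 0.128, 0.106 and 0.129) or oeSTUB1 replicate 1 (adjusted p = 0.0672), and held without oeSTUB1 replicate 2 at a log2 fold change of -0.68 (adjusted p = 0.00684).

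PCDHAC1 (chr5:140926369-141012344), the other alpha C-type isoform, and PCDHA3 and PCDHA12 are named after their values were seen. PCDHAC1 was at 1.11, 1.12 and 1.22 FPKM in oeNC and 0.615, 0.209 and 0.784 FPKM in oeSTUB1. These groups did not overlap either, but the difference of -1.11 on the log2 scale (SE 0.36) did not pass the test (adjusted p = 0.0833). Its oeSTUB1 libraries were spread widely, and without replicate 2 the fold change was -0.65 with an adjusted p of 0.0187. PCDHAC1 also passed without oeSTUB1 replicate 3 (adjusted p = 0.0473), but not with any other library left out (adjusted p up to 0.214). PCDHA3 had 0.593 to 0.768 FPKM in oeNC and 0.341 to 0.515 FPKM in oeSTUB1 (log2 fold change -0.64, adjusted p = 0.0711), and PCDHA12 had 0.857 to 0.974 and 0.543 to 0.843 FPKM (log2 fold change -0.31, adjusted p = 0.296). The 5 tested alpha genes whose groups did not overlap were PCDHA3, PCDHA11, PCDHA12, PCDHAC1 and PCDHAC2, all lower in oeSTUB1. They were 71.4% of the tested alpha genes, beside 17.3% of all genes tested that lay lower without overlap, and this was not tested. Among the 8 alpha genes below the filter, with at most 20 fragments in any library, PCDHA1 had 11, 6 and 8 fragments in oeNC and 4, 5 and 5 in oeSTUB1, and PCDHA10 had 15, 20 and 12 against 11, 6 and 7. Both were picked after their values were seen and have no test. Not all went this way, as PCDHA2, with 4, 4 and 3 against 7, 4 and 2, had a higher mean FPKM in oeSTUB1.

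Summed over the alpha genes, the level was 5.99, 5.90 and 6.17 FPKM in oeNC and 4.03, 2.39 and 4.51 FPKM in oeSTUB1. All 3 oeSTUB1 libraries were below all 3 oeNC libraries, replicate 2 included or not. Of the difference of -2.37 FPKM between the group means, -1.69 FPKM was in the C-type pair, with 3.13 to 3.48 FPKM in oeNC and 0.858 to 2.21 FPKM in oeSTUB1, while the other 13 alpha genes summed to 2.64 to 2.77 and 1.54 to 2.30 FPKM.

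**Figure D3:**
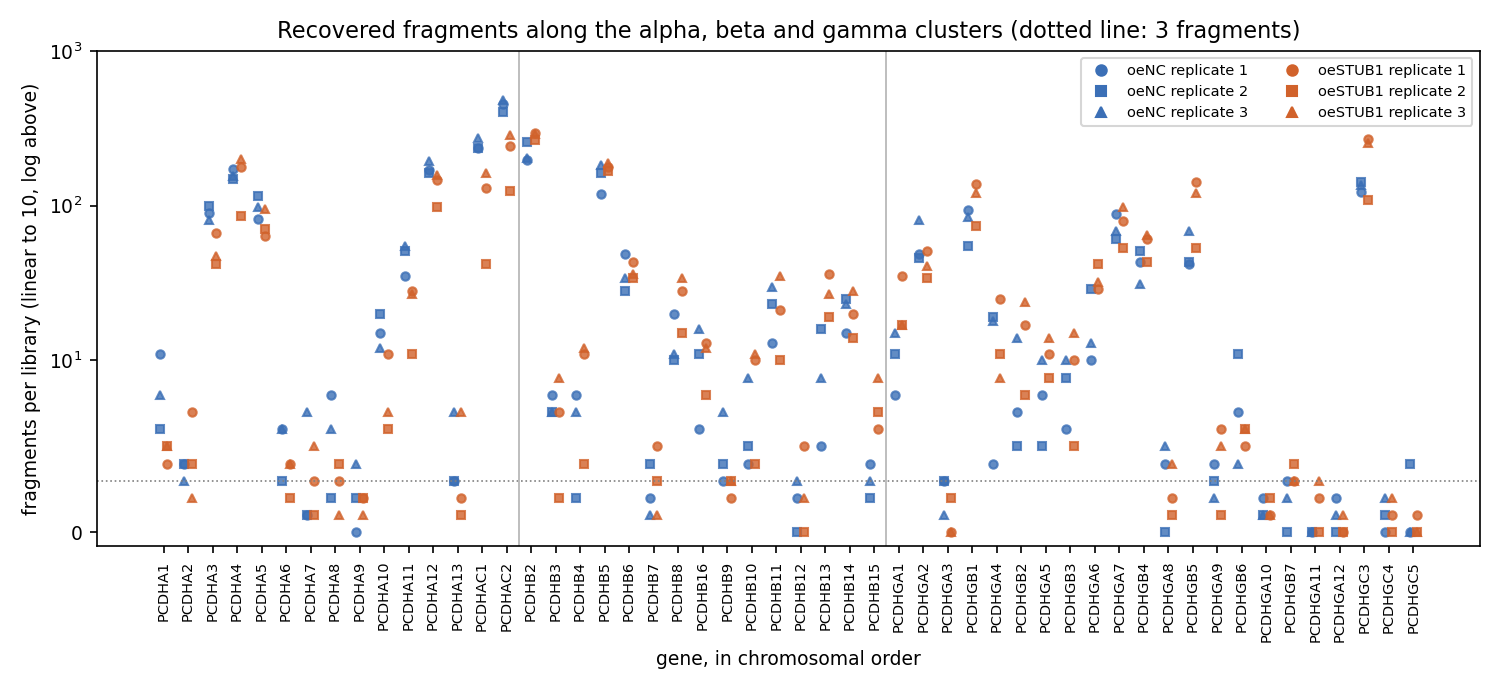
Recovered fragments per library (vertical axis, linear to 10 and logarithmic above) for the 52 clustered genes in chromosomal order, with lines between the alpha, beta and gamma clusters and a dotted line at 3 fragments; blue marks are oeNC, orange marks oeSTUB1. The highest counts in the alpha and gamma clusters stand toward the end of each array, at PCDHAC2 and PCDHGC3, and in the beta cluster at its start, at PCDHB2.

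The beta cluster spans chr5:141094578-141249365, and the length recovered from the FPKM of all 15 beta genes equals the length of the gene in RefSeq, as for single-exon genes without shared parts. PCDHB2 and PCDHB5 together held 68.5 to 77.9% of its fragments. PCDHB2 (chr5:141094578-141098703) was at 1.38, 1.82 and 1.34 FPKM in oeNC and 2.09, 1.96 and 2.07 FPKM in oeSTUB1. Its oeSTUB1 values were tightly grouped and above all oeNC values, yet the log2 fold change of 0.42 (SE 0.14) did not pass the test (adjusted p = 0.0966). The order of the leading genes in listed FPKM turned. PCDHAC2 was above PCDHB2 in each oeNC library, and PCDHB2 was above PCDHAC2 in each oeSTUB1 library. PCDHAC2 shares 46.9% of its exon bases with other alpha genes, while PCDHB2 is a single exon. If fragments of shared exons were not counted, the level of PCDHAC2 is understated, so this turn is uncertain.

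PCDHB5 and PCDHB13, named after their values were seen, were the other tested beta genes without overlap. With PCDHB2 they made 42.9% of the tested beta genes, beside 21.5% of all genes tested that lay higher without overlap. PCDHB5 had 1.01 to 1.45 FPKM in oeNC and 1.49 to 1.61 FPKM in oeSTUB1 (log2 fold change 0.26, adjusted p = 0.311). PCDHB13 rested on 5, 16 and 9 fragments in oeNC and 36, 19 and 27 in oeSTUB1 (log2 fold change 0.73, adjusted p = 0.122). The beta genes are near-identical in parts of their coding exons, so reads can be split among them. The 8 untested beta genes had 0 to 16 fragments in any library. Of these PCDHB15, picked after its values were seen, had 4, 2 and 3 in oeNC and 6, 7 and 9 in oeSTUB1, close to the floor and without a test. PCDHB9, with 3, 4 and 7 against 2, 3 and 3, had a lower mean FPKM in oeSTUB1. The sum over the beta genes was 3.54, 4.24 and 3.97 FPKM in oeNC and 5.24, 4.46 and 5.43 FPKM in oeSTUB1. Every oeSTUB1 library was above every oeNC library, replicate 2 by the least.

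The gamma cluster spans chr5:141330571-141512981. Its 22 genes share 27.6 to 64.4% of their exon bases with another gene (median 43.8%), with 2181 bases common to all. PCDHGC3 (chr5:141475947-141512979), its C-type leader, held 23.0 to 30.2% of the gamma fragments and was at 0.708, 0.812 and 0.734 FPKM in oeNC and 1.55, 0.658 and 1.47 FPKM in oeSTUB1. oeSTUB1 replicate 2 lay below all oeNC libraries and the other two well above them, and the log2 fold change of 0.56 (SE 0.29) did not pass the test (adjusted p = 0.245). Without that library the fold change was 0.92 and the adjusted p was 0.00308. With any other library left out PCDHGC3 did not pass the test, with adjusted p up to 0.467. PCDHGC3 was below PCDHAC1 in each oeNC library and above it in each oeSTUB1 library.

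PCDHGB1, the leading gamma B gene, was at 0.568, 0.332 and 0.479 FPKM in oeNC and 0.833, 0.468 and 0.742 FPKM in oeSTUB1 (log2 fold change 0.47, SE 0.25, adjusted p = 0.255). PCDHGA7, the leading gamma A gene, was at 0.466, 0.324 and 0.345 FPKM in oeNC and 0.422, 0.294 and 0.528 FPKM in oeSTUB1 (log2 fold change 0.09, SE 0.23, adjusted p = 0.830). Both genes overlapped between the groups. PCDHGB5, named after its values were seen, had the largest positive gamma change, with 0.251, 0.258 and 0.390 FPKM in oeNC and 0.862, 0.332 and 0.735 FPKM in oeSTUB1. Its log2 fold change was 0.83 (SE 0.32, adjusted p = 0.129), and without oeSTUB1 replicate 2 it was 1.18 (adjusted p = 0.00855). PCDHGB5 did not pass with any other library left out, with adjusted p up to 0.308. None of the 6 tested gamma genes was free of overlap, while 38.8% of all genes tested were. Of the 16 untested gamma genes, which had 0 to 42 fragments in any library, PCDHGA1 had 8, 11 and 15 in oeNC and 35, 17 and 17 in oeSTUB1, and PCDHGA6 had 10, 29 and 13 against 29, 42 and 32. Both were picked after their values were seen and have no test. Others went the other way, such as PCDHGB6 with 7, 11 and 4 against 5, 6 and 6.

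The gamma sum was 2.81, 2.73 and 2.94 FPKM in oeNC and 5.01, 2.71 and 4.75 FPKM in oeSTUB1, so replicate 2 lay below the oeNC libraries and the other two above. The 7 B genes summed to 1.04 to 1.21 FPKM in oeNC and 1.21 to 2.27 FPKM in oeSTUB1, and the 3 C genes to 0.708 to 0.841 and 0.658 to 1.57 FPKM. The 12 A genes summed to 0.852 to 0.977 FPKM in oeNC and 0.835 to 1.17 FPKM in oeSTUB1.

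Ratios of these sums were also taken within each library. The alpha sum divided by the gamma sum was 2.13, 2.16 and 2.10 in oeNC and 0.804, 0.885 and 0.949 in oeSTUB1, with means of 2.13 ± 0.0283 and 0.879 ± 0.0727 (SD, n = 3). Here oeSTUB1 replicate 2 lay between the other two. Divided by the beta sum, the alpha sum gave 1.39 to 1.69 in the oeNC libraries but 0.537 to 0.831 in those of oeSTUB1. The gamma sum divided by the beta sum overlapped, with 0.645 to 0.794 in oeNC and 0.607 to 0.956 in oeSTUB1. These ratios were chosen after the sums were seen and are a description without a test.

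**Figure D4:**
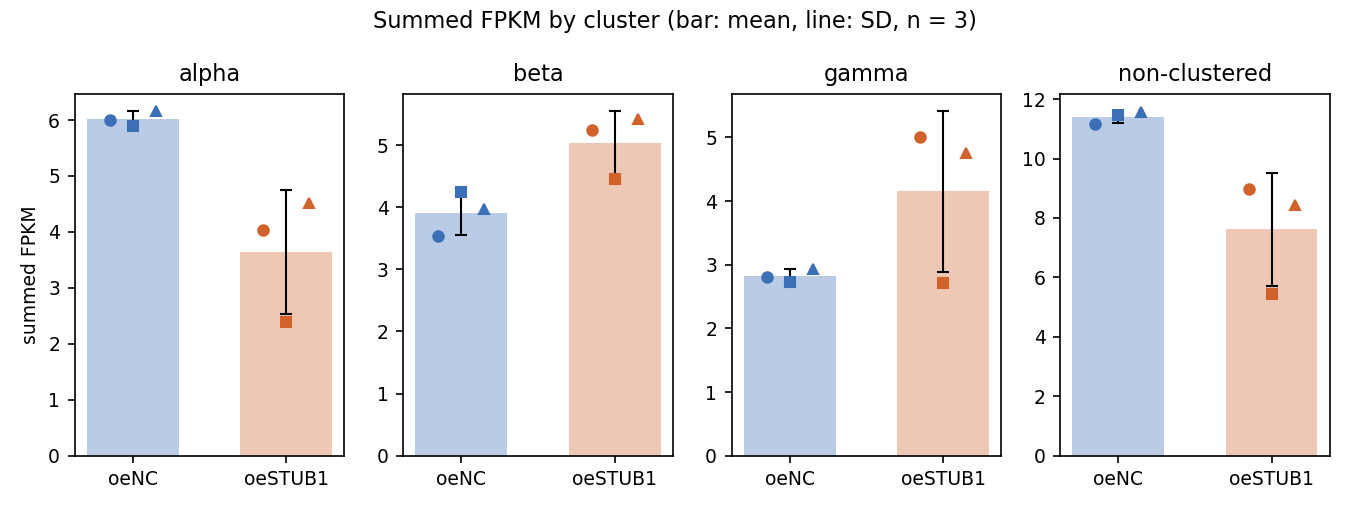
Summed FPKM (vertical axes from 0, a scale for each panel) of the alpha, beta, gamma and non-clustered genes in oeNC and oeSTUB1; bars are means, lines the SD of 3 libraries, and points the libraries, with a circle, square and triangle for replicates 1, 2 and 3. The alpha and non-clustered sums of all 3 oeSTUB1 libraries lie below oeNC and the beta sums above, while the gamma sum of oeSTUB1 replicate 2 (2.71 FPKM) lies below the 3 oeNC libraries.

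Among the non-clustered genes the tested members were PCDH1, PCDH7 and PCDH9, all of the delta-1 group. PCDH9 (chr13:66302834-67230445, minus strand) held 97.5 to 98.4% of the non-clustered fragments. It was at 10.5, 10.6 and 10.6 FPKM in oeNC and 8.38, 4.93 and 7.66 FPKM in oeSTUB1, from 6773 to 16124 fragments per library. The groups did not overlap, and oeNC was far tighter (10.6 ± 0.0768 FPKM) than oeSTUB1 (6.99 ± 1.82 FPKM, SD, n = 3). The log2 fold change was -0.62 (SE 0.18, adjusted p = 0.0610). It did not pass the test, but did so without oeSTUB1 replicate 2, at -0.39 with an adjusted p of 0.00440, and without oeSTUB1 replicate 1, at -0.77 with an adjusted p of 0.0447. With any other library left out PCDH9 did not pass, with adjusted p up to 0.173. The FPKM of PCDH9 rests on a recovered length of 41464 bases, and without the strand setting reads of the antisense transcript PCDH9-AS2 cannot be told apart from it.

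PCDH7 (chr4:30720415-31146805, plus strand), a delta-1 member that binds the phosphatase inhibitor SET, rose. It had 15, 14 and 12 fragments in oeNC and 80, 70 and 87 in oeSTUB1, or 0.0393, 0.0367 and 0.0297 FPKM against 0.211, 0.192 and 0.232 FPKM. Every oeSTUB1 library was far above every oeNC library, and oeSTUB1 replicate 2 did not stand apart. The ratio of the mean FPKM was 6.01, and the log2 fold change was 1.20 (SE 0.22, adjusted p = 0.0120), which is smaller because the pseudocount of 0.1 exceeds the oeNC level. With the recovered fragments in limma-voom it was 2.55, and with a pseudocount of 1 it was 0.23. PCDH7 passed the filter through the group where it is high. It was called in all 15 alternatives in which it was tested.

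PCDH1 (chr5:141853111-141879246, minus strand), a delta-1 member expressed in epithelia, lies outside the clusters on the same chromosome. It was at 0.495, 0.581 and 0.709 FPKM in oeNC and 0.233, 0.239 and 0.398 FPKM in oeSTUB1, with means of 0.595 ± 0.107 and 0.290 ± 0.0938 FPKM (SD, n = 3). The groups did not overlap, and PCDH1 fell, with a log2 fold change of -0.85 (SE 0.23, adjusted p = 0.0473). The call is close to the threshold. It was lost without any 1 library other than oeSTUB1 replicate 3, with adjusted p between 0.0566 and 0.163.

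The other 9 non-clustered members were below 0.1 FPKM. PCDH20, named after its values were seen, had 6, 21 and 17 fragments in oeNC and 2, 1 and 5 in oeSTUB1, without a test. PCDH17 (10, 12 and 36 against 24, 5 and 14 fragments) and PCDH15 (37, 29 and 30 against 33, 19 and 36 fragments) overlapped between the groups.

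**Figure D5:**
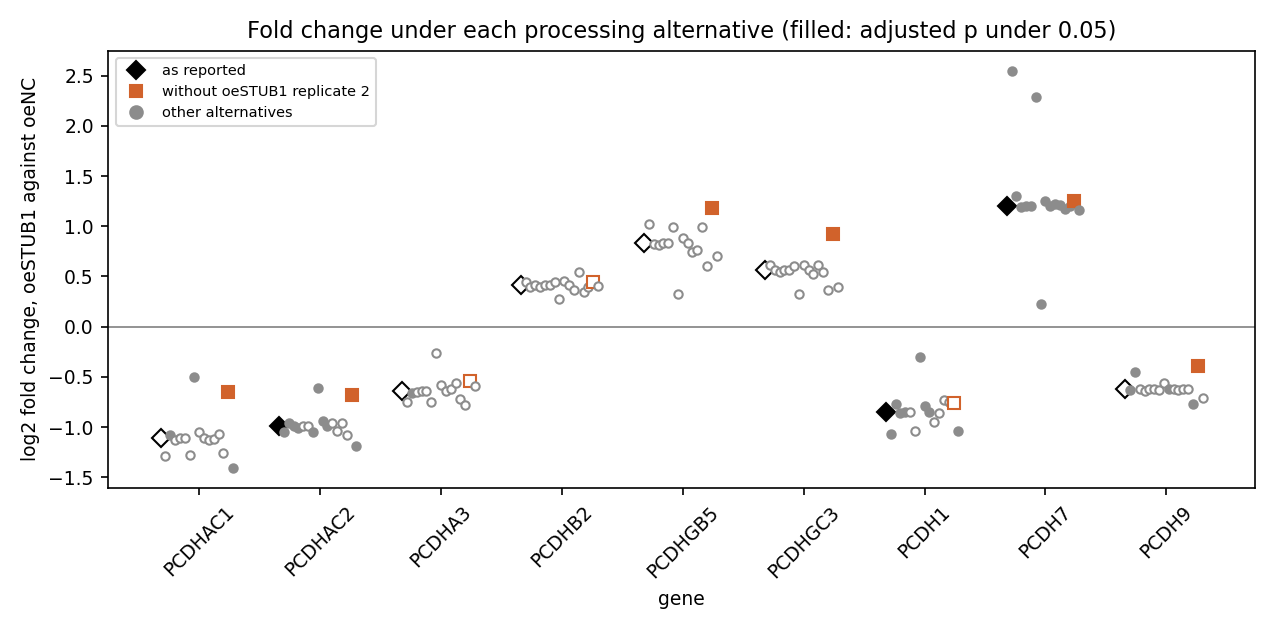
Log2 fold change (vertical axis) of 9 protocadherins (horizontal axis) as reported (diamonds), without oeSTUB1 replicate 2 (squares) and under the other processing alternatives (circles); filled marks have an adjusted p under 0.05. PCDH7 is filled throughout, PCDHAC2 and PCDH1 under some alternatives, and PCDHGB5 and PCDHGC3 only without oeSTUB1 replicate 2.

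Genes that act on the clustered promoters were read from the same fit. Of 26 regulators (CTCF, cohesin and its loaders, SMCHD1, DNA methyltransferases and histone modifiers) all were tested. None rose and 1 fell (3.8%, beside 13.6% over all genes tested). That gene was DNMT3B, a de novo DNA methyltransferase, which went from 17.4 ± 1.79 to 6.98 ± 1.41 FPKM (SD, n = 3), a log2 fold change of -1.32 (adjusted p = 0.0017). CTCF, which binds the clustered promoters, was at 0.02, SMCHD1, which silences the clusters, at -0.02, DNMT1 at -0.03 and UHRF1 at 0.27 on the log2 scale, and none of these passed the test. Without oeSTUB1 replicate 2, UHRF1 was at 0.34 and passed it (adjusted p = 0.0236). With any other library left out UHRF1 did not pass, with adjusted p up to 0.306. The median of the list was -0.04.

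Of 26 partners and proteases of protocadherins, 25 were tested, 1 rose and 2 fell. The share called in either direction was near the 13.6% over all genes tested. BRK1, a subunit of the WAVE complex that binds protocadherin tails, rose (log2 fold change 0.49). CYFIP2 of the same complex (-0.46) and the protease ADAM17 (-0.59) fell. The list's median was -0.11. Of 25 genes next to the clusters on chromosome 5, 23 were tested, none rose and 3 fell (13.0%, also near that share). These were FCHSD1 (-0.65), ARAP3 (-0.48) and TMCO6 (-0.44). TAF7, which lies between the beta and gamma clusters, was at 0.13 and did not pass the test, and the list's median was 0.11. Of 17 other long cadherins, 9 were tested and only FAT4 (-1.61, adjusted p = 0.022) passed the test (11.1%). The median of this list was -0.15. FAT4 had 1510 to 1756 fragments in oeNC and 747, 224 and 633 in oeSTUB1, with replicate 2 again the lowest. DNMT3B, ADAM17 and FCHSD1 passed the test with each of the 6 libraries left out in turn. Without any 1 of the oeNC libraries the others lost their call, with adjusted p up to 0.104 for BRK1, 0.178 for CYFIP2, 0.152 for ARAP3, 0.113 for TMCO6 and 0.0826 for FAT4. The call was also lost without oeSTUB1 replicate 1 for ARAP3 and TMCO6 and without oeSTUB1 replicate 3 for CYFIP2 and TMCO6.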

How the data were processed

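RNA was extracted with TRIzol from TFK1 cells and sequenced in 6 libraries, 3 oeNC and 3 oeSTUB1, grouped by the labels. The authors deposited FPKM values for 23569 genes. The submitters' processing notes list fastp 0.20.1, HISAT2 2.1.0, HTSeq 0.11.2, R 3.2.0, DESeq2 1.22.2 and the build GRCh38.p13, without a role or order. The annotation, strand setting and counting mode are not given in the sources used here. The columns of values without a mapped sample numbered 0.

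Whole fragments and gene lengths were recovered from the FPKM steps for 100.0% of genes, with a largest difference of 4.9e-06 between recomputed and deposited FPKM. As the shortest fitting length was used, a gene's fragments may be understated by a shared factor. Library totals were 33106564 to 36744521 fragments, and single members with few fragments have wide counting error.

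The comparison of oeSTUB1 with oeNC used limma (version 3.58.1, R version 4.3.3) with lmFit and a trended, two-sided eBayes test. Values entered as log2(FPKM + 0.1), and 15353 genes averaging 0.1 FPKM or more were tested, with Benjamini-Hochberg adjustment over all of them. Log2 fold changes are on that scale and understate changes of low genes. Steps were tested on simulated data. Values in every library are given for members with an adjusted p under 0.05, for the leading member of each class and for non-clustered members of at least 1 FPKM; others are marked where named. Context genes were named from fixed lists. A further marker gene is not reported here. The members and lists were chosen with earlier results of these data known.

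The comparison was repeated with a pseudocount of 1 or 0.01, with a mean of 1 FPKM required or no filter, after quantile normalization or median-ratio scaling, with an untrended eBayes, with a replicate block, with limma-voom on the fragments, and with each library left out in turn. A lowess correction for gene length was chosen after seeing the data. Gene positions are those of GENCODE 29 (GRCh38), promoter windows those of RefSeq (GRCh38.p14). Python 3.11.15 was used for the other steps.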

Additional observations from a re-analysis of the deposited data

How the results depend on the processing

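STUB1, DNMT3B and PCDH7 kept their direction and their call under every alternative in which they were tested. Depth limits the low members, 41 of 64 being below the filter. The number of protocadherins that fell was 2 as reported, 5 with the length correction chosen after seeing the data (PCDH1, PCDH9, PCDHA3, PCDHAC1 and PCDHAC2), 1 with a mean of at least 1 FPKM, without the eBayes trend or with a pseudocount of 0.01, and 0 without a filter, where more genes were tested. Leaving out 1 library gave 0 to 3. The number that rose was 1, and 0 at a mean of at least 1 FPKM, where PCDH7 was not tested, and 1 to 3 with a library left out. Past a log2 fold change of 1, 1 protocadherin rose as reported, 0 at a mean of at least 1 FPKM or a pseudocount of 1, and 1 to 2 with a library left out. None fell by that much as reported in limma, while 2 did in limma-voom. The number was 1 with the length correction, median-ratio scaling or a pseudocount of 0.01, and 0 to 3 with a library left out. In limma as reported, 10 of 23 had an unadjusted p under 0.05 in either direction, beside 4554 of the 15353 genes tested. PCDH9 passed the test in limma-voom (adjusted p = 0.0489), with quantile normalization (0.0391) and with the length correction (0.00295), and PCDHAC1 with a pseudocount of 1 (0.0471), with the length correction (0.0393) and without oeSTUB1 replicate 3 (0.0473). PCDHAC2 did not pass without a filter (0.0876) or without the trend (0.0621), nor PCDH1 without a filter (0.0913) or with a pseudocount of 0.01 (0.0531). Over all genes 1076 rose and 1012 fell, 1675 and 1647 with the length correction, and 477 to 2274 and 456 to 1838 with a library left out, the highest without oeSTUB1 replicate 2. With a log2 fold change over 1, 429 rose and 369 fell, 202 and 182 at a mean of at least 1 FPKM, and 120 and 120 with a pseudocount of 1. Apart from the settings named, the cause of these shifts was not tested.

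Log2 fold changes that turned sign were those of genes that did not pass the test under any alternative. The median over all genes was -0.00234 with median-ratio scaling. With the length correction PCDHA4 was at 0.0791, PCDHB11 at -0.0161, PCDHB14 at -0.00174, CTCF at -0.00156 and SMCHD1 at 0.0797. With quantile normalization PCDHA4 was at 0.00829 and CTCF at -0.0508. PCDHB11 was at -0.0294 in limma-voom, -0.0089 with median-ratio scaling and -0.0262 with a pseudocount of 0.01. Without oeNC replicate 1 PCDHA4 was at 0.0199, PCDHB11 at -0.178 and PCDHB14 at -0.104, and without oeNC replicate 2 PCDHB6 was at -0.0422. Without oeSTUB1 replicate 1 PCDHB11 was at -7.53e-05 and CTCF at -0.0149, without oeSTUB1 replicate 2 PCDHA4 was at 0.228, SMCHD1 at 0.179 and DNMT1 at 0.111, and without oeSTUB1 replicate 3 PCDHB11 was at -0.245, PCDHB14 at -0.128 and PCDHGA7 at -0.0651. With a library left out the values ran from -0.21 to 0.228 for PCDHA4, -0.245 to 0.257 for PCDHB11, -0.128 to 0.144 for PCDHB14, -0.0422 to 0.267 for PCDHB6, -0.0651 to 0.27 for PCDHGA7, -0.0149 to 0.0598 for CTCF, -0.133 to 0.179 for SMCHD1 and -0.115 to 0.111 for DNMT1.

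The labels give both groups replicate numbers 1 to 3. Deviations of same-numbered libraries correlated at -0.049, -0.052 and 0.062, and those of unlike numbers at -0.097 to 0.110. These values give no sign that the numbers pair the libraries, though with oeSTUB1 replicate 2 standing apart they cannot exclude it. With the replicate block 741 genes rose and 747 fell, and among the protocadherins 1 rose and 2 fell, as without it. KRT8 (adjusted p = 0.0878) and KRT18 (0.0622) did not pass with the block, nor without a filter (0.226 and 0.194).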
